A study of Homo sapiens with 6 samples.

Results

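The comparison described here sets 2 RNA-seq libraries of hTert-HME1 cells side by side, both harvested at passage 4 in complete medium with EGF. One was made from cells given control-1 siRNA and the other from cells labelled as given BRCA2-2 siRNA, and both carry the biological replicate letter A. They are 2 of the 6 libraries of the series. hTert-HME1 is a human mammary epithelial line immortalised with telomerase, grown here in a Lonza medium for mammary epithelium and transfected with RNAiMAX, with a recovery period before growth. The other 4 libraries served as yardsticks: controls A and B (control-1 siRNA, with EGF, passage 6), and replicates A and B of BRCA2-2 siRNA grown without EGF to passage 6. All 6 libraries come from this 1 immortalised line, and nothing in the labels says whether A and B were separate cultures, so the spread between them may be technical. The deposited values are on a log2 scale. Of 57820 gene rows, the 14616 whose mean of 2 raised to the value reached 10 over the 2 passage 4 libraries were kept, and each was described by its difference, the library labelled BRCA2 siRNA minus the control. With 1 library per group the difference has no replicates of its own and is given as a description. It is read against the difference between controls A and B.

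BRCA2 acts in the repair of DNA breaks by homologous recombination and in the protection of stalled replication forks, and its loss impairs both. EGF drives the proliferation of mammary epithelial cells through EGFR and the ERK pathway. Cells that leave the division cycle lower the E2F-driven genes of DNA replication, while epithelial cells under stress or inflammatory signals secrete chemokines through NF-kB.

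The targeted gene went against the label. BRCA2 stood at 10.19 in the control passage 4 library and at 10.88 in the library labelled BRCA2 siRNA, a difference of 0.69 or 1.61-fold. It stood at 11.25 and 11.24 in controls A and B, and at 11.15 and 10.89 in the libraries without EGF. The passage 4 control was therefore the lowest of the 6 libraries for the gene that the siRNA in the other library targets. Directions below are those of the library labelled BRCA2 siRNA, and no lowering of BRCA2 mRNA at the time of harvest can be read from them. EGFR, the receptor for the growth factor in the medium, stood at 15.82 in the passage 4 control, 15.15 in the library labelled BRCA2 siRNA, 15.34 and 15.39 in controls A and B, and 15.67 and 16.25 without EGF. Its level in the library labelled BRCA2 siRNA was the lowest of the 6, at a difference of -0.66.

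The passage 4 control also stood apart across the table. The SD of the differences over the 14616 rows was 0.399 for the passage 4 pair, 0.118 for controls A and B, and 0.307 for the replicates without EGF. Against the mean of controls A and B it was 0.300 for the library labelled BRCA2 siRNA and 0.495 for the passage 4 control, which lay farther from that mean in 69.9% of rows. Epithelial markers were high in every library: 11 of 12 were kept, while EPCAM fell under the filter. All 12 together summed to between 310822 and 569512 as 2 raised to the value. None of 8 haematopoietic markers was kept, with CD3E and HBB among those at 0 in all libraries, and 2 of 8 endothelial markers were kept, with CDH5 at 0. Of 12 fibroblast markers, 9 were kept. All 12 together summed to 2458 in the passage 4 control and 4388 in the library labelled BRCA2 siRNA. The sums were 2264 and 2634 in controls A and B, and 6980 and 7139 without EGF.

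A difference of at least 1 on the log2 scale, which is 2-fold, was reached by 175 rows that were higher in the library labelled BRCA2 siRNA (1.2% of rows) and 157 that were lower (1.07%), 2.27% together. Between controls A and B, 0 rows were that much higher in A and 1 was lower (0.00684% of rows). Between the 2 replicates without EGF, 31 were higher in A and 95 lower (0.212% and 0.65% of rows, 0.862% together). Against the mean of controls A and B, 0.814% of rows reached 1 in size in the library labelled BRCA2 siRNA and 4.6% in the passage 4 control. The differences at passage 4 ran from -2.76 to 3.35, around a median of -0.04. Of all rows, 45.3% were above 0 and 54.7% below. The list counts that follow are to be read against these shares and the 1.2% and 1.07% above. The values nearest the threshold were those of LSS at 1.0015 inside it and POLA1 at 0.9993 just outside it, and on the other side GULP1 at -1.0007 inside and TTYH2 at -0.9957 outside, so the counts cut through a continuous range.

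**Figure D1:**
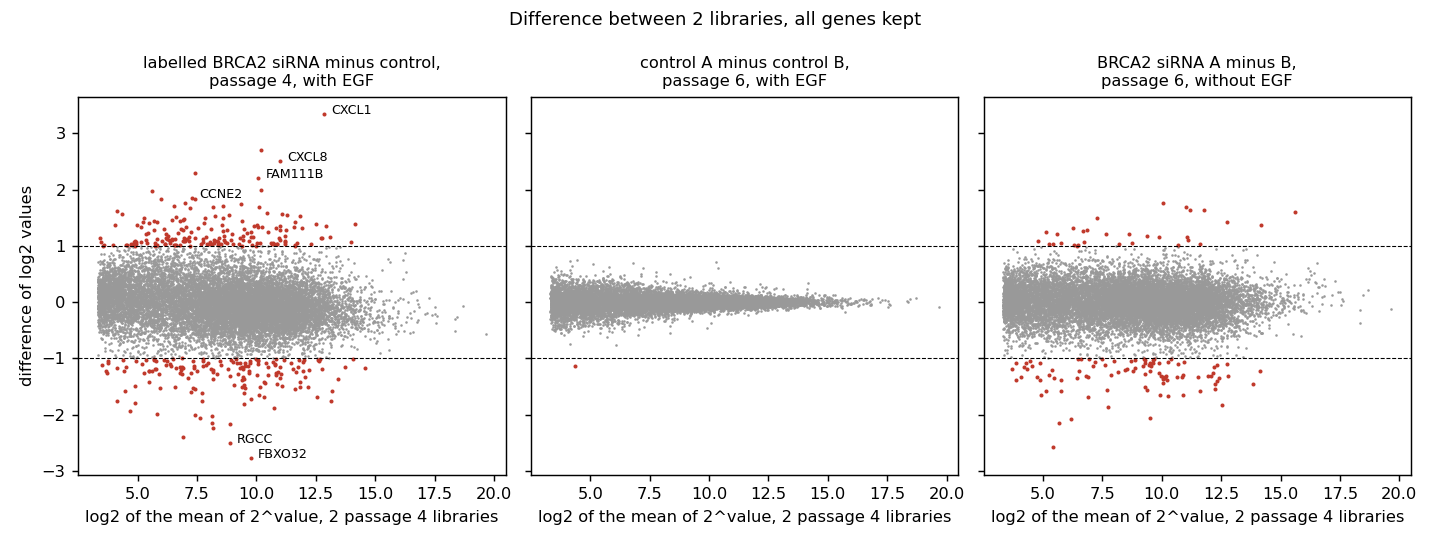
Difference of deposited log2 values (vertical axis) against the log2 of the mean of 2 raised to the value over the 2 passage 4 libraries (horizontal axis) for 14616 rows. Points are genes, red where the difference is at least 1 in size (dashed lines). The passage 4 pair holds 332 such rows, controls A and B 1, and the libraries without EGF 126.

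Which passage 4 library lay farther from the passage 6 controls differed between the higher and lower genes. Of the 157 lower genes, 153 (97.5%, against 69.9% of all rows) lay farther from the mean of controls A and B in the passage 4 control than in the library labelled BRCA2 siRNA, and in 138 the passage 4 control was above all other 5 libraries (32.5% of all rows). Of the 175 higher genes, 130 did, which at 74.3% is near the share of all rows. In 107 the passage 4 control was below the other 5 libraries (23.2% of all rows), and in 85 the library labelled BRCA2 siRNA was above the other 5 (14.5% of all rows). These genes were picked by the difference between the 2 passage 4 libraries, so such shares rise through the choice itself. They describe the genes and are no test. Chemokines below are examples of genes highest in the library labelled BRCA2 siRNA, and replication genes of genes lowest in the passage 4 control.

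Short stretches upstream of 7 genes are printed here because each holds a short motif known for its gene group, and they let the motif be seen in its setting. Each is the 250 bases before the RefSeq start (GRCh38.p14), 5′ to 3′ on the gene's strand, with the motif in capitals. The genes were chosen after their values and motifs were seen, and many members of the same lists hold no such match. CXCL1, CXCL3 and CXCL8 encode neutrophil chemokines and share GGAATTTCC, a form of the kappaB site; MCM6 and E2F1 belong to DNA replication and hold TTTGGCG, a form of the E2F site; CIART and PER1 are clock genes and hold CACGTG, the E-box.
CXCL1, chr4:73869143-73869392, + strand: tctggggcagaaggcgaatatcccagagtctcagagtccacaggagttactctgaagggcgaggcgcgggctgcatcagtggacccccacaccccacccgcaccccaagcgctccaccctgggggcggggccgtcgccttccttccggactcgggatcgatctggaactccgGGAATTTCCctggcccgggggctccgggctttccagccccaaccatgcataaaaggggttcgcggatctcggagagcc
CXCL3, chr4:74038690-74038939, - strand: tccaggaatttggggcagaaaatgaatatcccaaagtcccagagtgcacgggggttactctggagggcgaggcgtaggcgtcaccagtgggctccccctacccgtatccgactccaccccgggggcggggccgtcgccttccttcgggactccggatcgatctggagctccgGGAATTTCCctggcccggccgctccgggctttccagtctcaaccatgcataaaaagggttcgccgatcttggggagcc
CXCL8, chr4:73740319-73740568, + strand: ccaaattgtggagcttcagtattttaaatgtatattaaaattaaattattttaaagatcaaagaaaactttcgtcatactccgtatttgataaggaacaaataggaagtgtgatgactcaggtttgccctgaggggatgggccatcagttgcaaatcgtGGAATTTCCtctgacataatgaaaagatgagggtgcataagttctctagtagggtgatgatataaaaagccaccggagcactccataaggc
MCM6, chr2:135876444-135876693, - strand: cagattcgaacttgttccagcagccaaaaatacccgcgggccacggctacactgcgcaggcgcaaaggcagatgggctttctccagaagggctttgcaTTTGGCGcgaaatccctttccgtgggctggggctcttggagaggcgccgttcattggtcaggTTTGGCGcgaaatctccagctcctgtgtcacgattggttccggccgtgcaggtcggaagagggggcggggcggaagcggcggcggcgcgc
E2F1, chr20:33686386-33686635, - strand: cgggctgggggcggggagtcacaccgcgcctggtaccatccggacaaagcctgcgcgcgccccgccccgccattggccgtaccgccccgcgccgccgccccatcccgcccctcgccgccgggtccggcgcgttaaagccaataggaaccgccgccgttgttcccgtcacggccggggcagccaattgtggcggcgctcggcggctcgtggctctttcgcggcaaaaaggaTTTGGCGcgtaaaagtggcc
CIART, chr1:150282304-150282553, + strand: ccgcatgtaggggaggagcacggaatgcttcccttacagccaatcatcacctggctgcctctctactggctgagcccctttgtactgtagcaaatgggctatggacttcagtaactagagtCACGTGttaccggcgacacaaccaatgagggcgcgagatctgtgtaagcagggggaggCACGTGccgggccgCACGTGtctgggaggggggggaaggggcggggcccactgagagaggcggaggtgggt
PER1, chr17:8152405-8152654, - strand: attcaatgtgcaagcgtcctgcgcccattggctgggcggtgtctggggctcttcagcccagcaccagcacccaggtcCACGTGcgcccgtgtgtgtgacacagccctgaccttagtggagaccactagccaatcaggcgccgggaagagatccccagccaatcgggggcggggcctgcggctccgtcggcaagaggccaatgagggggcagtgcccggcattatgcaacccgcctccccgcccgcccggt

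The motif begins 78 bases before the start in CXCL1 and in CXCL3, and the stretches of these neighbours are identical at 162 of 250 positions read without gaps. In CXCL8 it begins 91 bases before the start. Searching 300 bases (250 before to 50 after the start) on both strands, GGAATTTCC was found for 7 of the 18 kept members of the NF-kB list that have a promoter in the table, which is 38.9%, against 0.560% of all 27305 genes with a promoter and 0.616% of the kept ones. TTTGGCG or TTTCCCGC, the E2F forms searched, was found for 17 of 24 members of the DNA replication list (70.8%), against 4.21% of all and 6.81% of kept genes. CACGTG was found for 5 of 14 clock genes (35.7%), against 8.77% and 12.3%. These shares belong to the lists as drawn up and say nothing about the difference at passage 4. Of the genes at least 1 higher, 116 had a promoter in the table. The kappaB form was held by 5 (4.31%), an E2F form by 17 (14.7%) and CACGTG by 11 (9.48%). Of those at least 1 lower, 120 had one. The kappaB form was held by 2 (1.67%), an E2F form by 7 (5.83%) and CACGTG by 20 (16.7%). The shares of kept genes were 0.616%, 6.81% and 12.3%. GGAATTTCC ends and TTTCCCGC begins with the same letters, so 1 stretch could hold both, and a match describes the letters only.

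Chemokines and cytokines held the highest differences of the table. Of 28 genes on a list of NF-kB targets and inflammatory cytokines, 22 were kept, 17 were above 0 (45.3% of all rows were) and 6 were at least 1 higher, with a median of 0.58. The same list had the largest median of any list between controls A and B, at 0.21, and a median of -0.74 between the replicates without EGF, so it varies between replicates more than others do. It was not alone in this. Without EGF the amino acid and unfolded protein list was close to it at -0.73, past its own -0.60 at passage 4. The heat shock list, at 0.55 without EGF, was also past its own 0.35. CXCL1 stood at 10.34 in the passage 4 control and 13.69 in the library labelled BRCA2 siRNA, against 11.44 and 11.18 in controls A and B and 10.48 and 10.57 without EGF, a 10.2-fold difference at passage 4 (3.35). All other libraries lay below the one labelled BRCA2 siRNA, and the passage 4 control was the lowest. For CXCL8, interleukin 8, the values were 9.26 and 11.77 at passage 4, 9.48 and 9.23 in controls A and B, and 8.52 and 8.90 without EGF, a difference of 2.51. CXCL3 read 8.27 and 10.97 at passage 4, 8.55 and 8.25 in controls A and B, and 7.61 and 8.53 without EGF, a difference of 2.70. In these 2 genes the passage 4 control lay between controls A and B, and the library labelled BRCA2 siRNA was the one that stood apart. CXCL1, CXCL2 and CXCL3 are close in sequence, and the treatment of reads common to them was not stated in the labels.

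The colony-stimulating factors were also highest in the library labelled BRCA2 siRNA. CSF3, which drives neutrophil production, stood at 8.89 and 10.88 at passage 4, 10.04 and 10.01 in controls A and B, and 8.74 and 8.06 without EGF, a difference of 1.99. CSF2, the granulocyte-macrophage factor, stood at 6.23 and 8.07, then 7.05 and 6.83, then 6.74 and 6.20, a difference of 1.84. In both genes controls A and B lay between the passage 4 libraries. CCL20, a chemokine for lymphocytes and dendritic cells, differed by 1.22, but its mean level was low.

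The rest of the NF-kB list was less uniform. SOD2, the mitochondrial superoxide dismutase, differed by 0.77, and its values of 13.43 and 14.20 at passage 4 were both above the 12.27 and 12.18 of controls A and B. The inhibitors NFKBIA and TNFAIP3 differed by 0.35 and 0.22, and IL1B by 0.72. RELB, a subunit of the non-canonical pathway, had the lowest difference of the list at -0.70, with 9.19 in the passage 4 control, 8.48 in the library labelled BRCA2 siRNA and 7.72 and 7.50 in controls A and B. IL6 read 6.64 and 7.08 at passage 4 against 4.77 and 4.81 in controls A and B. As a list, both passage 4 libraries lay above the mean of controls A and B, by a median of 0.49 in the control and 0.999 in the library labelled BRCA2 siRNA.

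Other secreted or membrane proteins were among the 15 highest. STC1, the secreted glycoprotein stanniocalcin, stood at 5.83 and 8.13 at passage 4, 6.80 and 6.62 in controls A and B, and 5.15 and 4.76 without EGF, a 4.91-fold difference (2.30). S100A9, a subunit of calprotectin, stood at 7.50 and 9.20 at passage 4, 7.83 and 7.48 in controls A and B, and 7.62 and 7.20 without EGF. Its partner S100A8 read 6.91 and 8.31 at passage 4 and 6.85 and 6.32 in controls A and B. In both calprotectin genes the library labelled BRCA2 siRNA was the highest of the 6. ESM1, a secreted proteoglycan, differed by 1.83, GSDMC of the pore-forming gasdermins by 1.77, ANGPTL4, an inhibitor of lipoprotein lipase, by 1.75, and the receptor MRGPRX3 by 1.70. Each of these 4 was highest in the library labelled BRCA2 siRNA. RGS4, which shortens signalling by G proteins, differed by 1.71, but its 7.16 there lay under the 7.83 and 8.08 of controls A and B.

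**Figure D2:**
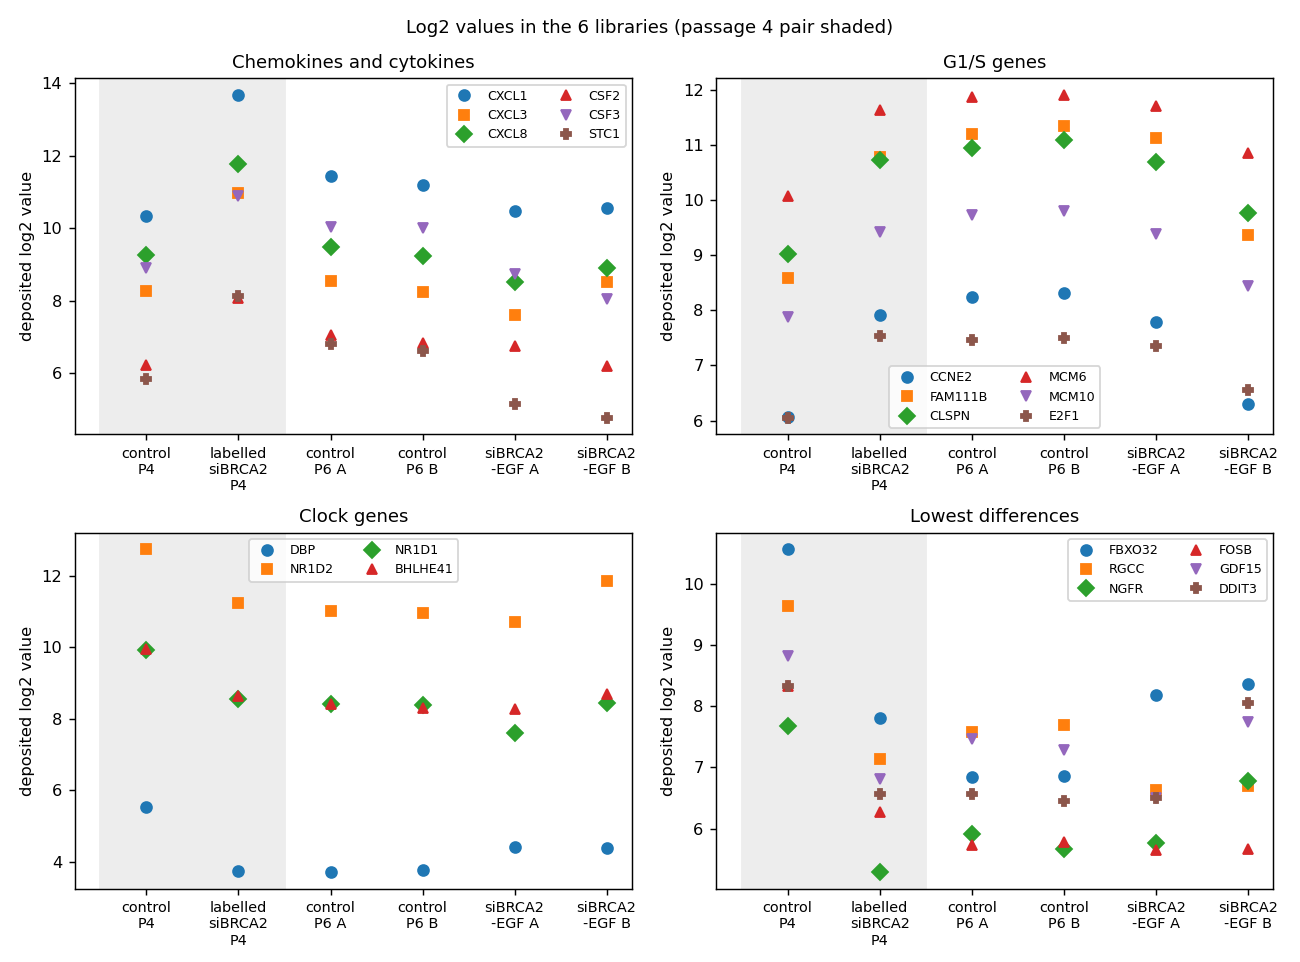
Deposited log2 values (vertical axis) of 22 genes in each of the 6 libraries (horizontal axis), with the passage 4 pair shaded; each symbol is 1 gene. Chemokines peak in the library labelled BRCA2 siRNA (CXCL1 at 13.69), while the G1/S genes are lowest, and the clock genes highest, in the passage 4 control.

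DNA replication genes had the highest list median. All 30 kept members of a list for DNA replication and entry into S phase were higher in the library labelled BRCA2 siRNA, 18 of them by at least 1 (1.2% of all rows), with a median of 1.03 and a range of 0.30 to 1.86. Between controls A and B the median was -0.06. The passage 4 control was the lowest of the 6 libraries in 27 of the 30 (23.2% of all rows). All 30 lay farther from the mean of controls A and B there than in the library labelled BRCA2 siRNA (69.9% of all rows). Measured against controls A and B, the median was -1.26 in the passage 4 control and -0.20 in the library labelled BRCA2 siRNA.

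Among regulators of S phase entry, CCNE2, the cyclin E2 that activates CDK2, stood at 6.06 in the passage 4 control, 7.92 in the library labelled BRCA2 siRNA, 8.24 and 8.32 in controls A and B, and 7.79 and 6.30 without EGF, a difference of 1.86. The passage 4 control and replicate B without EGF were low and the other 4 high. E2F1, a transcription factor of this programme, stood at 6.04 and 7.53 at passage 4, 7.46 and 7.50 in controls A and B, and 7.36 and 6.55 without EGF. For the replicative helicase, MCM6 stood at 10.07 and 11.64 at passage 4, 11.88 and 11.92 in controls A and B, and 11.72 and 10.85 without EGF, a difference of 1.57. The other helicase subunits MCM2, MCM3, MCM4, MCM5 and MCM7 differed by 1.01, 1.34, 1.14, 1.05 and 0.58. MCM10, which helps start the helicase, stood at 7.87 and 9.43 at passage 4 and at 9.74 and 9.81 in controls A and B, a difference of 1.56. RRM2, a ribonucleotide reductase subunit, differed by 1.40.

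FAM111B, a protease among the 15 highest differences and on no list, had the pattern of these genes. It stood at 8.58 in the passage 4 control, 10.79 in the library labelled BRCA2 siRNA, 11.20 and 11.35 in controls A and B, and 11.13 and 9.38 without EGF. CLSPN, the adaptor by which ATR activates CHK1 at stalled forks, stood at 9.02 and 10.72 at passage 4, 10.96 and 11.09 in controls A and B, and 10.70 and 9.77 without EGF. In both, the passage 4 control was lowest and replicate B without EGF next.

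Homologous recombination, the pathway that the siRNA targets, was higher as a list by a median of 0.55, with 21 of 25 members above 0 and 2 at least 1 higher. BRCA1, which acts upstream of BRCA2, stood at 10.60 in the passage 4 control, 11.64 in the library labelled BRCA2 siRNA, 11.87 and 11.85 in controls A and B, and 11.78 and 11.51 without EGF, a difference of 1.04. EXO1, a nuclease that resects breaks, differed by 1.02, and the recombination protein XRCC2 by 0.94. PALB2, which bridges BRCA1 and BRCA2, differed by -0.08, ATM by -0.09 and the break sensor RAD50 by -0.55. In 18 of the 25 the passage 4 control was the lowest of the 6 libraries (23.2% of all rows), BRCA2 and BRCA1 among them. Of 16 checkpoint and mismatch repair genes 13 were above 0, with a median of 0.40, CLSPN highest and the CDK1 inhibitor kinase WEE1 lowest at -0.61.

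Mitotic genes differed in the same direction by less. Of 30 kept, 29 were above 0 and 0 reached 1, with a median of 0.29. MKI67, the proliferation marker Ki-67, stood at 15.12 and 15.88 at passage 4, 16.13 and 16.23 in controls A and B, and 16.34 and 16.03 without EGF, and the motor KIF11 differed by 0.59. The passage 4 control was the lowest library in 23 of the 30 (23.2% of all rows). In these bulk libraries, fewer cells in a phase of the cycle and less RNA of these genes per cell cannot be told apart.

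Cholesterol synthesis and heat shock genes were also mostly higher. Of 23 genes for sterol synthesis and uptake, 22 were above 0 and 5 at least 1 higher, with a median of 0.56. HMGCS1, an early enzyme of the pathway, stood at 13.31 in the passage 4 control, 14.70 in the library labelled BRCA2 siRNA, 14.86 and 14.81 in controls A and B, and 13.94 and 12.58 without EGF. INSIG1, a sterol-sensing brake on the pathway, differed by 1.14 and the isomerase IDI1 by 1.09. SREBF2, the transcription factor of these genes, was the exception at -0.23. All 13 heat shock genes were above 0, with a median of 0.35, led by the inducible chaperones HSPA1A at 1.28 and HSPA1B at 1.17, whose near-identical sequences make their separate values uncertain. HSPD1 and HSPB1 differed by 0.03 each.

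The lowest differences belonged to genes that were high in the passage 4 control. FBXO32, the ubiquitin ligase atrogin-1, stood at 10.57 there, 7.80 in the library labelled BRCA2 siRNA, 6.83 and 6.85 in controls A and B, and 8.17 and 8.36 without EGF, a 6.79-fold lower level at passage 4 (-2.76). RGCC, a regulator of the cell cycle, stood at 9.64 and 7.14 at passage 4, 7.58 and 7.69 in controls A and B, and 6.63 and 6.69 without EGF (-2.50). FOSB, a subunit of AP-1, stood at 8.33 and 6.28, then 5.74 and 5.77, then 5.65 and 5.66 (-2.05). In these 3 genes the passage 4 control was above every other library, and the library labelled BRCA2 siRNA was nearer to the passage 6 controls. GDF15, a secreted stress cytokine and p53 target, differed by -2.02, NGFR, the neurotrophin receptor of basal cells, by -2.40, and the long noncoding RNA DIRC3 by -2.23. EXPH5, a RAB27 effector, differed by -2.17, and its 7.41 in the library labelled BRCA2 siRNA was the lowest of the 6 libraries. Among the remaining 8 of the 15 lowest were RND3, an atypical small GTPase, at -1.75, PPP1R3B, which targets a phosphatase to glycogen, at -1.88, and the histone deacetylase HDAC9 at -1.73.

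Circadian clock genes had the lowest median of any list with at least 3 kept members, at -0.93, with 13 of 14 below 0 (54.7% of all rows were) and 5 at least 1 lower. DBP, an output factor of the clock, stood at 5.54 in the passage 4 control, 3.75 in the library labelled BRCA2 siRNA, 3.70 and 3.77 in controls A and B, and 4.42 and 4.39 without EGF. NR1D2, a REV-ERB repressor, stood at 12.75 and 11.23 at passage 4, 11.01 and 10.94 in controls A and B, and 10.70 and 11.85 without EGF. Its relative NR1D1 stood at 9.93 and 8.55, then 8.42 and 8.39, then 7.60 and 8.45. In all 3 the passage 4 control was the highest library. The period genes PER1, PER2 and PER3 differed by -0.97, -0.91 and -0.95, and CIART by -0.64. The core activators CLOCK and BMAL1 differed by 0.05 and -0.08, and the repressor CRY1 by -0.12. The differences were thus larger in the period and output genes than in CLOCK and BMAL1. The hour of harvest is not given in the labels.

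Genes of translation formed a pair of groups, both lower. All 35 ribosomal protein genes were below 0, within -0.52 to -0.11 and at a median of -0.34, and the passage 4 control was the highest of the 6 libraries in all 35 (32.5% of all rows). RPL13A stood at 15.19 and 14.67 at passage 4, 14.16 and 14.14 in controls A and B, and 13.88 and 14.15 without EGF. Both passage 4 libraries lay above controls A and B, by a median of 0.72 in the control and 0.38 in the library labelled BRCA2 siRNA. Reads of ribosomal protein genes can be shared with their many processed pseudogenes. EEF1A1, the elongation factor, differed by -0.52. The host genes of small nucleolar RNAs, which share with ribosomal proteins the 5′ terminal oligopyrimidine type of transcript, differed by more: 13 of 14 were below 0 and 5 at least 1 lower, at a median of -0.70. ZFAS1 stood at 12.20 and 11.18 at passage 4, 10.97 and 10.92 in controls A and B, and 10.81 and 11.57 without EGF, and GAS5 differed by -1.002. ZFAS1 and EPB41L4A-AS1, at -1.36, lie antisense to other genes, and the labels do not say whether the counting used strand.

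**Figure D3:**
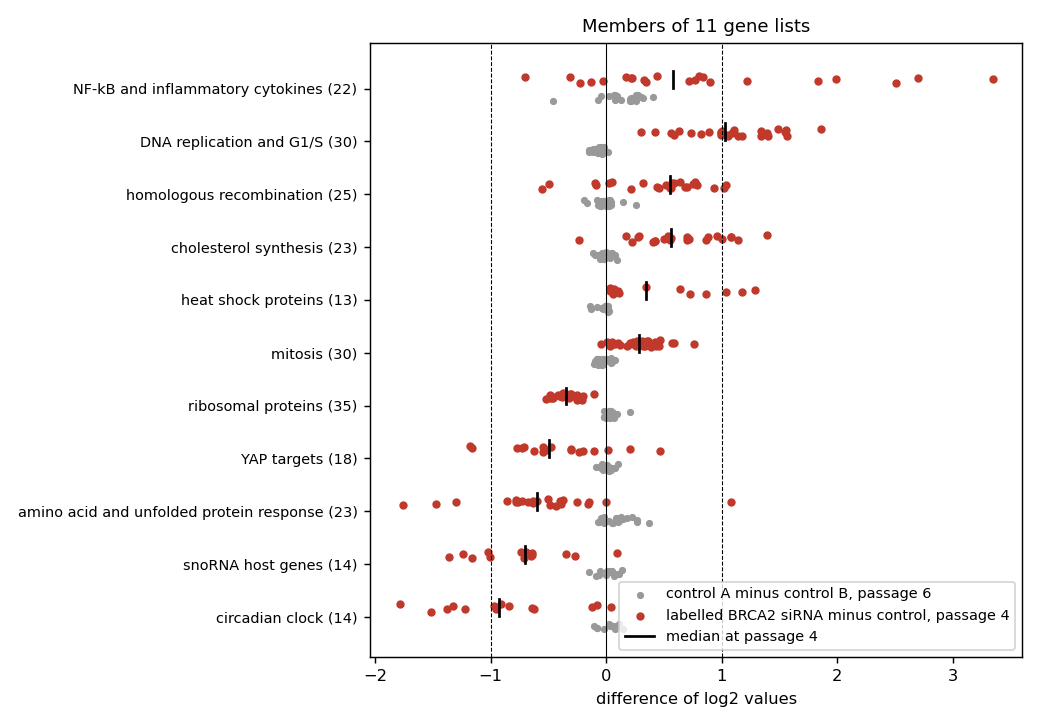
Differences of log2 values (horizontal axis) for the kept members of 11 gene lists (vertical axis, number kept in parentheses). Red points are the passage 4 pair with a black bar at the median, grey points controls A and B. All 30 DNA replication genes lie right of 0 and all 35 ribosomal protein genes left of 0. The grey points of these lists run from -0.15 to 0.018 and from -0.022 to 0.20. Those of the NF-kB list spread from -0.46 to 0.41.

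The amino acid and unfolded protein responses were lower, with 22 of 23 members below 0, 3 at least 1 lower and 1 at least 1 higher, at a median of -0.60. DDIT3, the transcription factor CHOP, stood at 8.34 in the passage 4 control, 6.57 in the library labelled BRCA2 siRNA, 6.56 and 6.45 in controls A and B, and 6.49 and 8.05 without EGF. ATF3 stood at 10.05 and 8.57 at passage 4, 8.46 and 8.36 in controls A and B, and 8.39 and 10.44 without EGF. The passage 4 control and replicate B without EGF were high in both, and the other 4 low. HSPA5, the chaperone BiP, differed by -0.86 and had its lowest value, 15.07, in the library labelled BRCA2 siRNA, against 15.93 in the passage 4 control and 15.65 and 15.67 in controls A and B. The asparagine synthetase gene ASNS differed by -0.76. VLDLR, a lipoprotein receptor, was the 1 member above 0, at 1.08.

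YAP targets and immediate early genes overlapped in CCN1 and CCN2, matricellular proteins. Of 18 YAP targets, 15 were below 0 and 2 at least 1 lower, at a median of -0.50. CCN1 stood at 15.05 and 13.87 at passage 4, 14.06 and 14.05 in controls A and B, and 14.31 and 14.57 without EGF, so that the passage 4 control was the highest and the library labelled BRCA2 siRNA the lowest. ANKRD1 differed by -1.16, CCN2 by -0.71 and the receptor kinase AXL by -0.62, while WWTR1, the coactivator TAZ, differed by 0.46. Of 16 immediate early genes, 11 were below 0 (54.7% of all rows were) and 3 at least 1 lower, at a median of -0.24. FOSB and ATF3 led them, but FOS, JUN and DUSP1 differed by 0.26, 0.19 and 0.35, so the family held both directions.

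Epithelial structure genes were mostly lower. Of 18 junction genes 17 were below 0, at a median of -0.30, and in 14 the library labelled BRCA2 siRNA was the lowest of the 6 libraries (16.2% of all rows). The desmosomal cadherin DSG3 stood at 12.59 and 11.63 at passage 4, 11.83 and 11.69 in controls A and B, and 12.95 and 13.79 without EGF, and the desmosomal plaque protein DSP differed by -0.69 and E-cadherin, CDH1, by -0.45. Among 21 basal genes 15 were below 0 (54.7% of all rows were), at a median of -0.23. Centred on the median of all rows, the basal median was -0.19. That is within the largest list median between controls A and B, 0.21. The keratin KRT17 differed by -0.99 and the basal transcription factor TP63 by -0.50, while KRT5 and KRT14 differed by -0.09 and -0.15; reads of keratins can be shared with their paralogs.

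Fibroblast markers were higher in 8 of 9 kept genes, 3 of them by at least 1, at a median of 0.41. LUM, the matrix proteoglycan lumican, stood at 7.28 and 8.82 at passage 4, 6.95 and 6.77 in controls A and B, and 7.57 and 8.10 without EGF. DCN, decorin, stood at 8.88 and 10.11, then 8.14 and 8.17, then 9.03 and 9.10. In both the library labelled BRCA2 siRNA was the highest of the 6 libraries. COL3A1, a fibrillar collagen, differed by 1.35, but its 10.42 there was below the 11.34 and 11.56 without EGF. The other markers FAP, COL1A1 and PDGFRB differed by -0.03, 0.41 and 0.31, and COL1A2, PDGFRA and TCF21 fell under the filter. A separate list of mesenchymal and EMT genes did not share this direction. Of its 17 kept members 11 were below 0 (54.7% of all rows were), at a median of -0.15, within the 0.21 of controls A and B. POSTN was its lowest at -1.28, and FN1 differed by -0.57. The part of other cells in these values was not tested.

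Of the 41 lists with at least 3 kept members, 23 had a median farther from 0 than the largest list median between controls A and B, 0.21. Of these, 11 were above 0 and 12 below. Between the replicates without EGF the largest list median was 0.74 in size. Only DNA replication, at 1.03, and the clock, at -0.93, lay beyond that wider limit. Some of the 23 lay close to 0.21, such as luminal genes at -0.211, and which lists pass 0.21 depends on the scaling. In 17 of the 23 the median of the passage 4 control was the farther one from controls A and B, a share near that of single rows (69.9%). The other 18 lists lay between -0.19 and 0.18. They include ERK feedback targets at 0.02, EGFR family genes and ligands at 0.02, and p53 targets at -0.12, where GDF15 and the kinase PLK2, at -1.03, were the 2 at least 1 lower. Nuclear respiratory chain genes stood at -0.09, interferon-stimulated genes at 0.18 and integrins at -0.03. The ERK list held values of both signs, from the phosphatase gene DUSP4 at -0.79 to the inhibitor SPRY4 at 0.69.

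**Figure D4:**
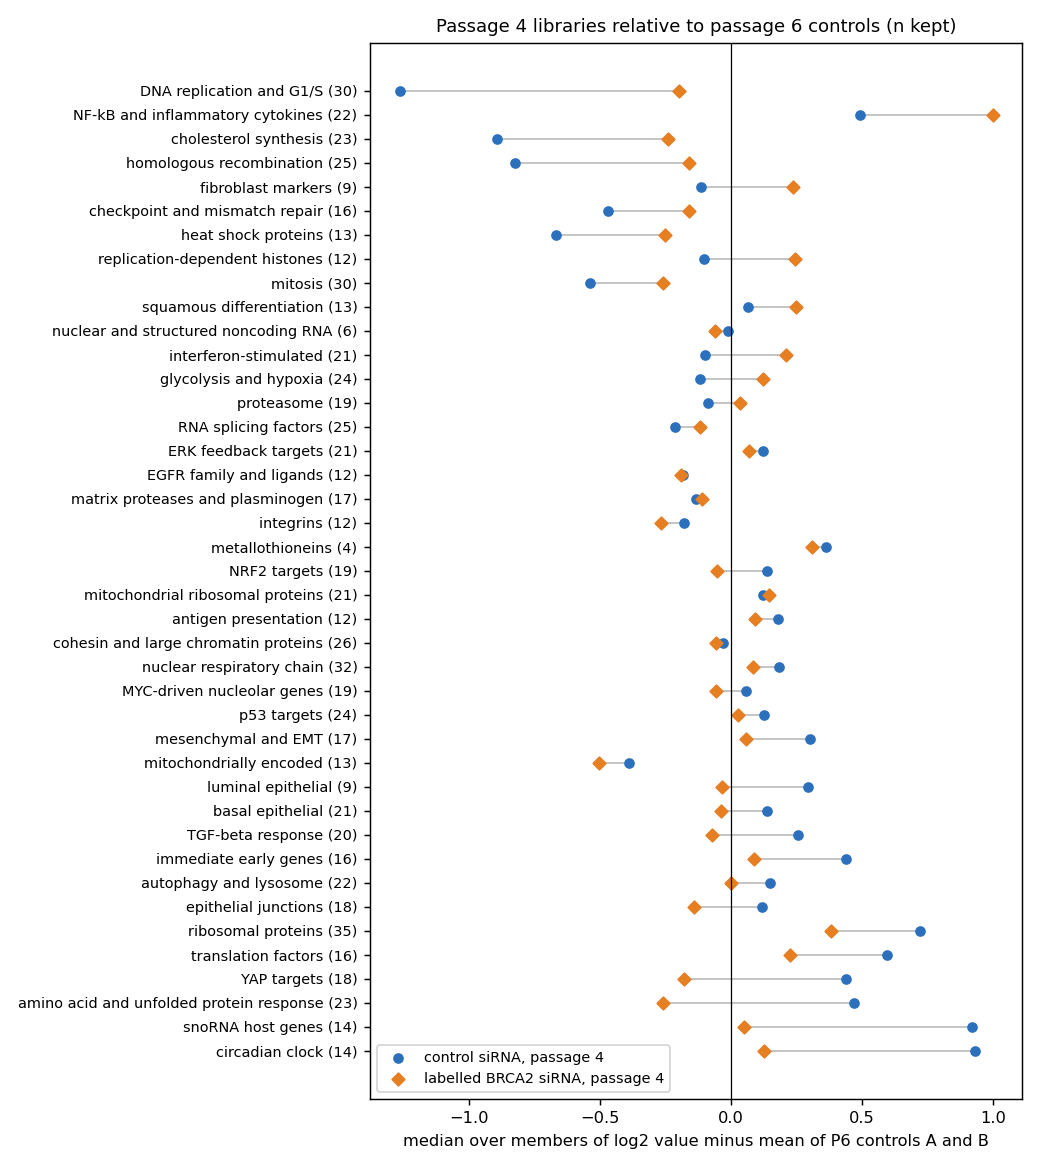
Median over the kept members of each of 41 gene lists (vertical axis, number kept in parentheses) of the log2 value minus the mean of passage 6 (P6) controls A and B (horizontal axis), for the passage 4 control (blue circles) and the library labelled BRCA2 siRNA (orange diamonds). For DNA replication the medians are -1.26 and -0.20, for the clock 0.93 and 0.13, and for NF-kB targets 0.49 and 0.999.

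The 2 replicates without EGF differed along similar lines, although they share no library with the passage 4 pair and carry the same siRNA as each other. The order A minus B is arbitrary. Taken as B minus A, the sign of each correlation and difference without EGF would be reversed, and same and opposite signs would trade places. Across the 14616 rows, the passage 4 difference and the difference of replicate A minus replicate B had a Pearson correlation of 0.436 and a Spearman rank correlation of 0.433; this is a description across genes, which are not independent. Of the 175 genes higher at passage 4, 140 were higher in replicate A (80% against 50.4% of all rows), and of the 157 lower genes 133 were lower in A (84.7% against 49.6%). For 32 genes both differences reached 1 in size, 31 with the same sign. They were 9.64% of the passage 4 calls, where 0.862% of all rows were called without EGF. They were 25.4% of the 126 calls without EGF, where 2.27% of all rows were called at passage 4. The list medians without EGF were 0.59 for DNA replication, 0.49 for cholesterol synthesis, 0.55 for heat shock, -0.73 for the amino acid and unfolded protein responses, -0.34 for snoRNA host genes and -0.44 for the clock. Of the 23 lists beyond the spread of controls A and B at passage 4, 19 had a median of the same sign here, some of them close to 0. The 4 of the opposite sign were NF-kB targets at -0.74, replication-dependent histones at -0.26, TGF-beta response at 0.11 and autophagy at 0.0048.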

How the data were processed

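Polyadenylated RNA was extracted with AllPrep columns and mRNA Direct beads and made into ScriptSeq v2 libraries, per the labels' protocols. Per the submitters' processing notes, TopHat2 2.0.11, DESeq2 (no version) and hg19 were used; counter, annotation and log transformation were not given in the sources used here. Values deposited by the authors are log2, in 1 table in which 25986 rows are 0 in all 6 libraries. No counts were recovered, so the depth per library and the precision it gives are unknown, and if the transformation shrinks low values their differences are understated. All columns matched a label (0 left over).

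Rows were kept where 2 raised to the value averaged at least 10 over the passage 4 pair. Symbols came from a gene table and GENCODE v29 names (96.8% of kept rows). Differences, list medians (43 lists) and counts were computed with pandas 2.3.3 in Python 3.11.15. Named genes were BRCA2, BRCA1 and EGFR, the 15 highest and 15 lowest differences at a mean of at least 50, and the 4 largest of each list at a mean of at least 20; others, including further list members, were chosen after their values were seen, and some genes that the rule names are not reported here. The comparison, the lists and their members were chosen with earlier results of these data known. Promoter sequences came from RefSeq (GRCh38.p14). Alternatives were other call limits, filters, centring, quantile normalization, the passage 6 controls in place of the passage 4 control, and limma 3.58.1 (R 4.3.3) over all 6 libraries.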

Additional observations from a re-analysis of the deposited data

How the results depend on the processing

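Counts of genes at least 1 higher and 1 lower stayed within 1.5 times the 175 and 157 reported under a mean of at least 50, no filter, quantile normalization, centring on the median, and a limit taken from the libraries without EGF. They were 852 and 900 at 1.5-fold, and 2527 and 3828 beyond the 99th percentile of controls A and B. With controls A and B in place of the passage 4 control they were 102 and 17. The limma counts that follow are of another kind, genes with a limma adjusted p under 0.05 at any size of difference. In limma over all 6 libraries, with 2 residual degrees of freedom, 0 genes passed in each direction (smallest adjusted p 0.062; unadjusted p under 0.05 for 1344 and 2095). Leaving out 1 library of a pair gave 0 to 3112 higher and 0 to 4547 lower; without replicate A of the libraries without EGF they were 3103 and 4547, without replicate B 3112 and 4542, since the spread then comes from controls A and B alone. No paired analysis was possible because each passage 4 group has 1 library, which also leaves no replicate to leave out.

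With controls A and B in place of the passage 4 control, 20 list medians changed sign. The 12 that had lain beyond the spread of controls A and B were homologous recombination (-0.16), DNA replication (-0.20), mitosis (-0.26), checkpoint and mismatch repair (-0.16), cholesterol synthesis (-0.24), heat shock (-0.25), nuclear noncoding RNA (-0.0602), ribosomal proteins (0.38), translation factors (0.23), snoRNA hosts (0.051), immediate early genes (0.0876) and the clock (0.13). The 8 that had lain within it were mitochondrial ribosomal proteins, splicing factors, EGFR family, EMT and metallothioneins, with values below, and p53 targets (0.026), the nuclear respiratory chain (0.0838) and antigen presentation (0.0911). Other than in the 12, medians moved by over the replicate spread of 0.20 for NF-kB targets (0.999), mitochondrial ribosomal proteins (0.15), mitochondrially encoded genes (-0.50), splicing factors (-0.12), amino acid and unfolded protein responses (-0.26), EGFR family (-0.19), EMT (0.0589), YAP targets (-0.18), integrins (-0.27), metallothioneins (0.31) and autophagy (-0.0015). At a mean of at least 50 the medians were 0.54 for squamous genes, 1.22 for fibroblast markers and -0.25 for metallothioneins. Quantile normalization moved all 41 list medians by less than 0.20, but some crossed the 0.21 of controls A and B. Ribosomal protein (-0.2045), basal (-0.207), luminal (-0.11), squamous (0.15), TGF-beta (-0.11), autophagy (-0.16) and immediate early genes (-0.16) fell within it. Proteasome genes (0.22), splicing factors (0.23) and glycolysis (0.24) passed it. That scaling moved 16 named genes by more than their replicate spread. Of 121 named genes recomputed with controls A and B in place of the passage 4 control, 65 changed sign. The 38 of these that had differed by at least 1 were RGS4 (-0.80), FAM111B (-0.49), CCNE2 (-0.36), MCM10 (-0.35), HSPA1B (-0.33), CLSPN (-0.30), HSPA1A (-0.28), MCM6 (-0.26), EXO1 (-0.26), INSIG1 (-0.24), HSD17B7 (-0.22), BRCA1 (-0.22), DNAJA1 (-0.15), HMGCS1 (-0.14), DBP (0.0161), SNHG32 (0.0618), DDIT3 (0.0659), KIF26B (0.13), NR1D1 (0.15), TGFB2 (0.15), ATF3 (0.16), HS3ST2 (0.17), ZFAS1 (0.23), NR1D2 (0.26), HDAC9 (0.26), BHLHE41 (0.29), CREBRF (0.30), KDR (0.34), RND3 (0.35), SQSTM1 (0.35), EPB41L4A-AS1 (0.38), SPRR2D (0.39), FOSB (0.52), WIPI1 (0.55), GABARAPL1 (0.93), PPP1R3B (0.93), DIRC3 (0.94), FBXO32 (0.96). The other 27 had differed by less, among them BRCA2 (-0.36), MKI67 (-0.30), XRCC2 (-0.39), RPL13A (0.52), EEF1A1 (0.41), FTL (0.97) and KRT17 (0.31). The causes were not tested. Depth is unknown, so no limit of detection can be given.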

Other observations

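Hypoxia and glycolysis genes held both directions. EGLN3, an oxygen-sensing hydroxylase, stood at 7.83 in the passage 4 control, 9.10 in the library labelled BRCA2 siRNA, 8.25 and 8.11 in controls A and B, and 8.49 and 7.85 without EGF. Carbonic anhydrase CA9 differed by 0.92 and the glycolytic kinase PGK1 by 0.81, each highest in the library labelled BRCA2 siRNA, whereas NDRG1, also a hypoxia target, differed by -0.90 and was highest in the passage 4 control, at 15.58. The list of 24 had 16 members above 0 and a median of 0.17.

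Several autophagy genes were high in the passage 4 control. The autophagy receptor SQSTM1 stood at 12.57 and 11.24 at passage 4, 10.88 and 10.90 in controls A and B, and 10.99 and 11.27 without EGF, and WIPI1 and GABARAPL1 differed by -1.09 and -1.05. The ferritin light chain gene FTL stood at 13.35 and 12.37 at passage 4, 11.45 and 11.35 in controls A and B, and 11.04 and 11.14 without EGF. OSGIN1, an NRF2 target, differed by -1.35, while GCLM, an NRF2 target for glutathione synthesis, differed by 0.76 and was lowest in the passage 4 control. The list of 22 autophagy and lysosome genes had a median of -0.25, and that of 19 NRF2 targets, with 9 above 0 and 10 below, -0.05.

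Among interferon-stimulated genes, OAS3 differed by 1.16 and IFIT3 by 0.94, while STAT2 differed by -0.65. KDR, a growth factor receptor on the endothelial list, stood at 10.07 in the passage 4 control, 8.46 in the library labelled BRCA2 siRNA, 8.04 and 8.19 in controls A and B, and 9.14 and 9.54 without EGF. The cornified envelope gene SPRR2D differed by -1.49 although S100A8 and S100A9 on the same squamous list were higher.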
